A study of Mus musculus with 48 samples.

Results

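The liver makes most of the complement and clotting proteins of the blood, and 33 genes of these 2 cascades were listed by symbol. A gene was measured through probe sets that carry its symbol alone, and the brightest of them stood for the gene. By this rule 30 of the 33 genes were measured, among 18193 genes in all. They were 14 complement genes and 16 genes of coagulation and fibrinolysis. No probe set in the annotation used here carried the symbol C3 or Cpb2, and C4b was matched by a probe set shared with C4a, so these 3 genes are not analysed here.

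RNA of whole liver was measured in male C57BL/6J mice with diet-induced obesity (DIO). All mice had eaten the L-P/C-HF diet, a high-fat diet with a low ratio of protein to carbohydrate, for 10 weeks, and the study kept those with the poorest glucose tolerance. They then stayed on L-P/C-HF (HFHC in the sample labels) or changed to H-P/C-HF (HPHC in the labels), which has the same fat content and more protein in place of carbohydrate, for 2-d or 4-wk. Each of the 4 groups had 12 mice and 1 array per mouse. Array B25 of the H-P/C-HF group at 2-d was left out because the methods treat it as an outlier, so that group has 11. No lean or low-fat group was among the samples. The mice of the 2 durations also differ in age, and those of the longer duration went through another glucose tolerance test, so duration, age and this test cannot be told apart.

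As background, hepatocytes secrete fibrinogen, prothrombin and most other clotting factors as inactive precursors. Proteases then activate one another in turn until thrombin converts fibrinogen to fibrin, and plasmin dissolves the clot. Complement runs in the same manner: mannose-binding lectins or antibodies trigger proteases that assemble convertases, C5 is cleaved, and C5b gathers C6, C7, C8 and C9 into a pore in the target membrane. Several of these genes are raised in liver by interleukin 6 during the acute phase response, and many depend on the hepatocyte factors HNF1, HNF4 and C/EBP.

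The labelled tissue was checked against its markers. All values are log2 units of RMA signal, in which 1 unit is a doubling, and levels of different genes cannot be ordered because their probes differ. The mean over the 47 mice was 9.30 for the dimmest measured member, a level that 3601 of the 18193 genes reached. The 10 measured of 12 hepatocyte markers had a summed signal between 17.0 and 17.3 in every mouse, with group medians from 17.2 to 17.3. The array medians ran from 6.73 to 6.91. An index of RNA quality, taken as how far 3′ control probe sets of Gapdh and of beta-actin exceeded their 5′ counterparts, had medians of 0.44 on L-P/C-HF and 0.45 on the other diet at 2-d and of 0.24 and 0.25 at 4-wk, so it differed between durations and hardly between diets.

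Members next to each other on the genome recur in the results below. On the assembly GRCm38.p6, Fgg, Fga and Fgb lie side by side on chromosome 3 (chr3:83007724-83015056, chr3:83026153-83033627 and chr3:83042246-83049863). C8b and C8a are neighbours on chromosome 4 (chr4:104766317-104804548 and chr4:104815679-104876487), and F7 and F10 on chromosome 8 (chr8:13025506-13035809 and chr8:13037308-13056676). C2 and Cfb are neighbours on chromosome 17 (chr17:34862602-34882100 and chr17:34856374-34862514). Mbl1 and Mbl2 lie apart, on chromosomes 14 and 19 (chr14:41151456-41163904 and chr19:30232906-30239687).

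Promoter windows of RefSeq (GRCm38.p6; 250 bases before to 50 bases after an annotated start, 300 in all) were held for 25 of the 33 members, 23 of them measured. The 8 printed here belong to 4 terminal complement genes whose levels moved together (C8a, C8b, C9 and Hc), to Mbl2, which moved the other way, and to the 3 fibrinogen chains, which varied together between mice. The windows of Hc, C8a and Mbl2 are set by a transcript start inside the span of the gene. Each sequence runs 5′ to 3′ on the strand of the gene, and capitals mark letters that match GTTAAT (HNF1 element), CAAAGT (HNF4 core), TTGCNNAA (C/EBP) or TTCNNNGAA (STAT) on either strand.
C8a, chr4:104876349-104876648, minus strand: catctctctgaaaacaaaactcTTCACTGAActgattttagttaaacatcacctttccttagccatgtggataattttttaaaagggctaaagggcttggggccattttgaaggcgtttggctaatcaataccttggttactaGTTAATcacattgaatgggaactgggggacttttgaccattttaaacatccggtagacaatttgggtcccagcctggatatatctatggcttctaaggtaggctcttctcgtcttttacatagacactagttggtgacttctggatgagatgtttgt
C8b, chr4:104766067-104766366, plus strand: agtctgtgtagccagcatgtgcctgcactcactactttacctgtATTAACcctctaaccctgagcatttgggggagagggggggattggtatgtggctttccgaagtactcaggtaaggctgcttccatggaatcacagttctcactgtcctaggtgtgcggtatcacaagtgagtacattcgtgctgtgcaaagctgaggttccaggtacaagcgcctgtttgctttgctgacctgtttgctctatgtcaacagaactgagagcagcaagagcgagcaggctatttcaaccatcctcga
C9, chr15:6445096-6445395, plus strand: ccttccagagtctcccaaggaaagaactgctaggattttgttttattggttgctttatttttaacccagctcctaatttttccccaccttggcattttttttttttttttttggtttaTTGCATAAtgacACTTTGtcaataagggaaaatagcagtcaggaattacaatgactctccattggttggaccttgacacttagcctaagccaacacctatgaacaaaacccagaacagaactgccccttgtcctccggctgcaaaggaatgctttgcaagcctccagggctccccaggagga
Hc, chr2:35061363-35061662, minus strand: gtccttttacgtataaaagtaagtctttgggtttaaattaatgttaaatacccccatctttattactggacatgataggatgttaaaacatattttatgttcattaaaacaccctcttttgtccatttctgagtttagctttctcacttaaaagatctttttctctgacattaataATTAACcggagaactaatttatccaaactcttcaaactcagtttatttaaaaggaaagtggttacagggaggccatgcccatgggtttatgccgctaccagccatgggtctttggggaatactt
Mbl2, chr19:30232678-30232977, plus strand: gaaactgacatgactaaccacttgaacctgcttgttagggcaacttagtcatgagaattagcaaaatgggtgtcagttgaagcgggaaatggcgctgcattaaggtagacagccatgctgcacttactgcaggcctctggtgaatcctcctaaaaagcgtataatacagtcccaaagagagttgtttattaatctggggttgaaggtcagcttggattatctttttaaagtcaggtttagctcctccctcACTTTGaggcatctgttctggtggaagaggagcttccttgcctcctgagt
Fga, chr3:83025903-83026202, plus strand: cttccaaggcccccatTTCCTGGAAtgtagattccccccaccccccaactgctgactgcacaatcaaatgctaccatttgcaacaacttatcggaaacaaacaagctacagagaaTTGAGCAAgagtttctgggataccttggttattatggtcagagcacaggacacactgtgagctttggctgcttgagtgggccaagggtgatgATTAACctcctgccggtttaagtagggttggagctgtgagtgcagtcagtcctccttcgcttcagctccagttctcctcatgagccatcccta
Fgb, chr3:83049814-83050113, minus strand: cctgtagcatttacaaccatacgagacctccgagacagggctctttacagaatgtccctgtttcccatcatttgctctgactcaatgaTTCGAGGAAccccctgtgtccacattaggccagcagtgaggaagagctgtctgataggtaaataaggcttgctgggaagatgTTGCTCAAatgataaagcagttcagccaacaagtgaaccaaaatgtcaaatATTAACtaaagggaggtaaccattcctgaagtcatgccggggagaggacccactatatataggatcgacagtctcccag
Fgg, chr3:83007474-83007773, plus strand: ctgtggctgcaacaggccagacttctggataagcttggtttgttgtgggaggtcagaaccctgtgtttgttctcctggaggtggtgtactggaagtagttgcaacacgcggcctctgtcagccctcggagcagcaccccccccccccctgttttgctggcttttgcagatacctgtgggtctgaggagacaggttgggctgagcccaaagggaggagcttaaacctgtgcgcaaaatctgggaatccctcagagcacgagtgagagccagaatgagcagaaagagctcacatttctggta

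A match is only a run of letters and no evidence of binding. GTTAAT was in 8 of the 26 member windows (30.8%; C8g has more than 1 window) and in 7.1% of all 32851 windows. TTGCNNAA was in 8 member windows (30.8%, against 10.8% of all), TTCNNNGAA in 6 (23.1%, against 8.3%) and CAAAGT in 4 (15.4%, against 14.4%). All 3 kinds other than the HNF4 core were in the windows of Fga and Fgb, with the HNF1 element 43 and 29 bases before the start, whereas the window of Fgg held none of the 4. C8a and C8b both had an HNF1 element, at 107 and 206 bases before the start, and so did Hc at 74 bases. C9 had the HNF4 core and the C/EBP letters but no HNF1 element, and Mbl2 only the HNF4 core, at its start.

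The first question was whether exchanging carbohydrate for protein changed the expression of these factors. In limma's fit across 45037 probe sets, none of the 30 members passed an adjusted p of 0.05 at 2-d, where 0.0133% of all probe sets passed, or at 4-wk, where 0.0% passed. None passed for the mean of both durations either, against 0.0511% of all, or for the difference between the diet effects, against 0.0%. At an unadjusted p under 0.05, 1 member was called at 2-d (C4bp, lower), 2 at 4-wk (Mbl2 higher, Mbl1 lower), 4 for the mean (C4bp, Mbl1, Cfi and Cfb, all lower) and 1 for the difference (Mbl2), and the same threshold took in 3.52%, 2.76%, 4.56% and 1.63% of all probe sets. Ordinary ANOVA contrasts also called 0 members in each of these 4 comparisons. The paper used another test and threshold, ANOVA followed by Global Error Assessment, which was not run here. It lists the complement system among its top pathways for diet at 4-wk, and of the members that entry names Mbl2.

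The diet effects were small as well as uncalled. The median over the 30 members was -0.03 at 2-d and -0.04 at 4-wk on the log2 scale (all genes, 0.01 and -0.02), and 21 of 30 members had a negative sign at each. The 95% confidence interval of the effect lay within 0.3 log2 units of zero for 27 members at 2-d, 28 at 4-wk and 29 for the mean. The widest interval at 2-d was that of C8b, which ran from -0.13 to 0.39. The medians for complement and for coagulation and fibrinolysis were -0.04 and 0.00 at 2-d and -0.08 and 0.00 at 4-wk.

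**Figure D1:**
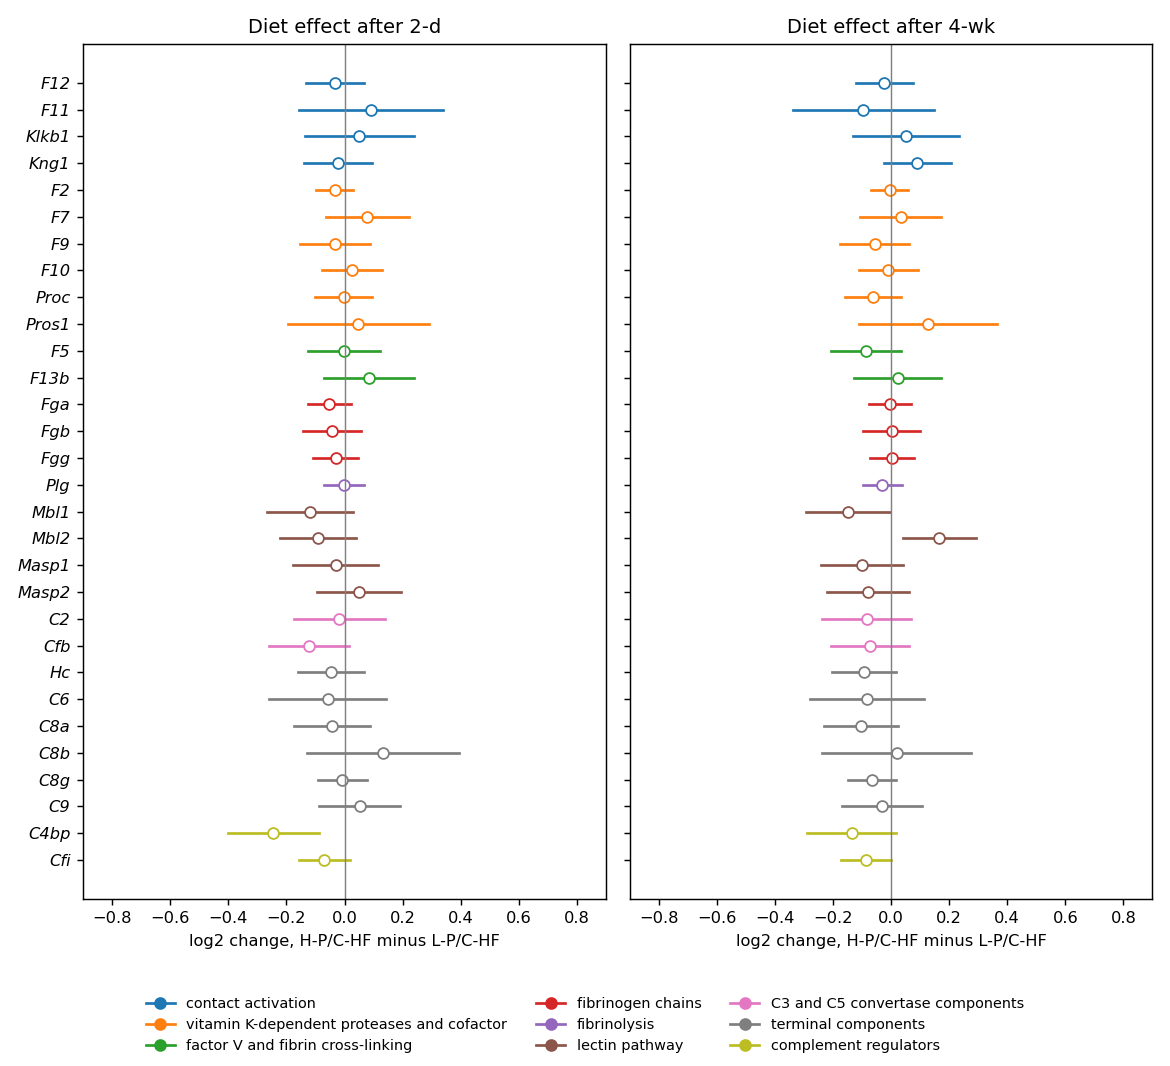
Diet effect on each of the 30 members after 2-d (left) and 4-wk (right), as the log2 change on H-P/C-HF relative to L-P/C-HF (x axis) by gene (y axis), coloured by role; circles are limma estimates, bars are 95% confidence intervals, and an open circle did not pass an adjusted p of 0.05. Every circle is open, and the largest effect at either duration is that of C4bp at 2-d (-0.25).

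C4bp, which encodes the binding protein that dismantles the C4b2a convertase, had the smallest p of the members at 2-d and for the mean of both durations. At 2-d its level was 12.32, 12.67 and 13.42 (lowest, median and highest) in the 12 L-P/C-HF mice and 12.24, 12.43 and 12.83 in the 11 H-P/C-HF mice. At 4-wk it was 12.35, 12.71 and 12.90 on L-P/C-HF against 12.35, 12.52 and 12.75 on H-P/C-HF. The ranges overlapped, but 10 of 11 mice fed H-P/C-HF at 2-d and 11 of 12 at 4-wk were under the median of their L-P/C-HF counterparts. The change was -0.25 (SE 0.08, p = 0.00278, adjusted p = 0.9998, limma) at 2-d and -0.14 (SE 0.08, p = 0.0816) at 4-wk, and its mean over both durations was -0.19 (SE 0.05, p = 0.00101, adjusted p = 0.403), which did not pass. Mouse A09 of the L-P/C-HF group held the highest value. Without it the change at 2-d was -0.18 and the mean over both durations -0.16 (p = 0.00115, adjusted p = 0.357). With array weights the mean over both durations passed, with an adjusted p of 0.0372 over the same 47 arrays and 0.0308 over all 48, B25 included.

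The mannose-binding lectins, which recognise sugars on microbes and start the lectin pathway, differed in sign at 4-wk. Mbl2 was at 12.56, 12.76 and 13 (lowest, median and highest) on L-P/C-HF and at 12.72, 12.94 and 13.19 on H-P/C-HF at 4-wk, so that 11 of 12 mice on the latter were over the median of the former. At 2-d it was at 12.37, 12.72 and 13.03 on L-P/C-HF and at 12.37, 12.68 and 12.77 on H-P/C-HF. The diet effect was -0.09 (SE 0.06) at 2-d and 0.17 (SE 0.06, p = 0.0114, adjusted p = 0.9993) at 4-wk. The difference between these effects was 0.26 (SE 0.09, p = 0.00649, adjusted p = 0.9999) and did not pass the test across all probe sets.

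Mbl1 pointed down at both durations. It ran from 11.33 over a median of 11.58 to 12.05 on L-P/C-HF and from 11.15 over 11.48 to 11.78 on H-P/C-HF at 2-d. At 4-wk the values were 11.17, 11.43 and 11.75 on L-P/C-HF and 11.10, 11.24 and 11.59 on H-P/C-HF. Its change was -0.12 (SE 0.07, p = 0.112) at 2-d and -0.15 (SE 0.07, p = 0.0424, adjusted p = 0.9993) at 4-wk, and 10 of 12 mice on H-P/C-HF were under the median of the other diet at 4-wk. For the mean of both durations, Mbl1 was at -0.13 (SE 0.05, adjusted p = 0.927), Cfi, the protease that inactivates C3b and C4b, at -0.08 (SE 0.03, adjusted p = 0.957), and Cfb, the protease of the alternative pathway convertase, at -0.10 (SE 0.05, adjusted p = 0.9996).

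The fibrinogen chains, which form the fibrin clot, had small diet effects, closer to zero at 4-wk than at 2-d. Fga was at 13.64, 13.82 and 14.05 on L-P/C-HF and at 13.69, 13.75 and 13.87 on H-P/C-HF at 2-d, and at 13.57, 13.73 and 13.82 against 13.60, 13.71 and 13.82 at 4-wk. Fgb was at 13.78, 14.01 and 14.55 against 13.90, 13.99 and 14.18 at 2-d, and at 13.76, 13.97 and 14.04 against 13.84, 13.98 and 14.07 at 4-wk. Fgg was at 13.83, 14.05 and 14.32 against 13.93, 14.00 and 14.11 at 2-d, and at 13.82, 13.98 and 14.08 against 13.86, 13.95 and 14.08 at 4-wk. Diet ranges overlapped for each chain at both durations. The diet effects ran from -0.05 to -0.03 at 2-d and were 0.00 for each chain at 4-wk, and the interval for Fga at 4-wk was -0.08 to 0.07. Whether signals as high as those of the fibrinogen chains limit the size of a measured change was not tested.

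Among the 51 measured of 56 other genes of these pathways, none passed for diet at either duration in limma's fit. An unadjusted p under 0.05 was found for 2 at 2-d and 3 at 4-wk, against 3.52% and 2.76% of all probe sets. The complement protein with the smallest p at 4-wk was Cfp, properdin of the alternative pathway, which was -0.41 (p = 0.00513, adjusted p = 0.9993), followed by C1s1, a protease of the C1 complex (-0.14, p = 0.0266), and C1qa (-0.34, p = 0.0531). Beside these, all 10 Kupffer cell markers had a negative sign at 4-wk (median -0.33, 6 of 10 with an unadjusted p under 0.05 and 0 called), and their part in these values was not tested. At 2-d the smallest p among complement receptors and coagulation genes of other cells were those of Cr2 (0.14, p = 0.0248) and F13a1 (-0.13, p = 0.0393). Among the acute phase genes outside the members, Itih4 was -0.16 (p = 0.0258) and Saa3 was -0.75 (p = 0.0291) at 2-d. Nr1i2, a nuclear receptor among the 9 regulators measured, was -0.22 (p = 0.0333) at 4-wk. The adjusted p was 0.9998 at 2-d and 0.9993 at 4-wk.

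The second question was how levels at 4-wk compared with those at 2-d within a diet, and here the members did move. On L-P/C-HF 7 members were lower at 4-wk and 0 higher, against 1.49% of all probe sets lower and 5.39% higher. On H-P/C-HF 8 were lower and 1 higher, against 1.98% and 4.71%. Among the 3601 genes at least as bright as the dimmest member, 3.08% and 4.39% were lower on the 2 diets. The 6 members lower on both diets by their brightest probe set were C8a, C8b, C9, Hc, C2 and Masp1. Over all 45037 probe sets, 309 were lower on both. All 6 belong to complement, which gave 14 of the 30 measured members. For Masp1 other probe sets rose on both diets, as given below, so its direction is not settled. The median over the members was -0.09 on L-P/C-HF and -0.11 on H-P/C-HF (all genes, 0.01 and -0.02), with medians of -0.18 and -0.20 for complement and of -0.08 and -0.09 for coagulation and fibrinolysis. In bulk liver, fewer cells of a type and less RNA per cell cannot be told apart.

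**Figure D2:**
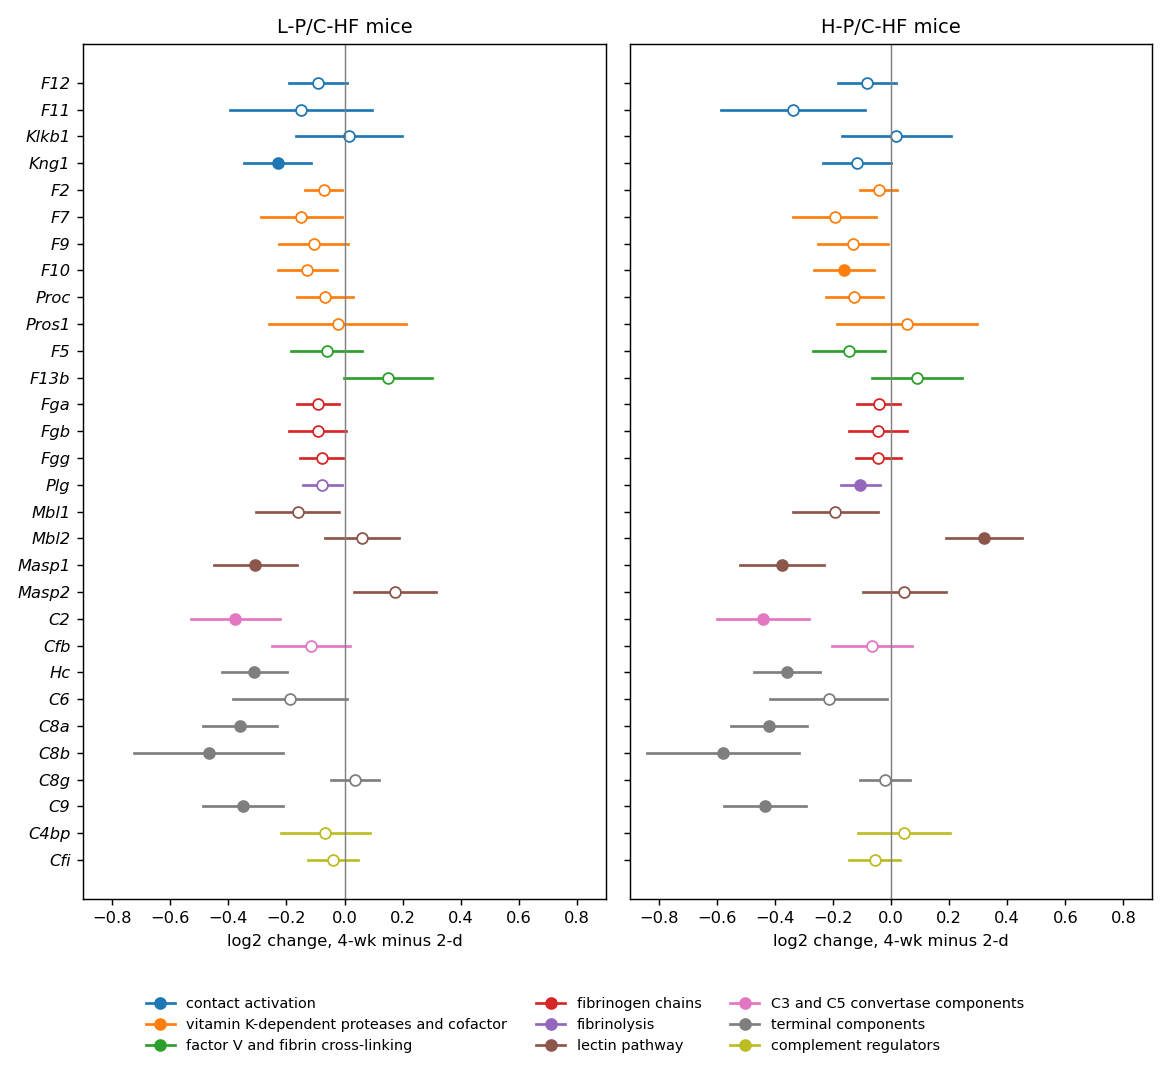
Change with duration for each of the 30 members on L-P/C-HF (left) and H-P/C-HF (right), as the log2 change of 4-wk minus 2-d (x axis) by gene (y axis), coloured by role; circles are limma estimates, bars are 95% confidence intervals, and filled circles passed an adjusted p of 0.05. Filled circles left of zero number 7 and 8, 4 of them terminal complement genes on each diet, and Mbl2 on H-P/C-HF (0.32) is the only filled circle to the right.

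The terminal components, which build the membrane attack complex, gave 4 of the calls on each diet. C8a, the alpha chain of C8, was at 12.56, 12.89 and 13.20 (lowest, median and highest) at 2-d and at 12.24, 12.53 and 12.83 at 4-wk on L-P/C-HF. On H-P/C-HF it was at 12.62, 12.82 and 13.04 at 2-d and at 12.25, 12.38 and 12.60 at 4-wk, so these groups did not overlap. The share of all probe sets without such overlap was not computed. C8a fell by 0.36 (SE 0.06, adjusted p = 9.99e-05, limma) on L-P/C-HF and by 0.42 (SE 0.07, adjusted p = 1.38e-05) on H-P/C-HF, about 0.779 and 0.747 times the level at 2-d.

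C8b, the beta chain of C8 and the neighbour of C8a, had the largest change and the widest spread of the members. On L-P/C-HF it was at 11.21, 11.72 and 12.08 at 2-d and at 10.35, 11.25 and 12.04 at 4-wk. On H-P/C-HF it was at 11.39, 11.87 and 12.24 at 2-d and at 10.61, 11.32 and 11.58 at 4-wk. Groups overlapped on both diets, with 10 of 12 and 12 of 12 mice at 4-wk below the median at 2-d. C8b fell by 0.47 (SE 0.13, adjusted p = 0.0146) and by 0.58 (SE 0.13, adjusted p = 0.00252). The third chain of the same protein, C8g, showed no call, with changes of 0.04 (SE 0.04, adjusted p = 0.744) and -0.02 (SE 0.04, adjusted p = 0.845).

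Hc, which encodes C5, was at 12.80, 12.98 and 13.26 at 2-d and at 12.41, 12.67 and 12.94 at 4-wk on L-P/C-HF. On H-P/C-HF it was at 12.79, 12.89 and 13.32 at 2-d and at 12.45, 12.58 and 12.78 at 4-wk, again without overlap. Hc fell by 0.31 (SE 0.05, adjusted p = 0.000103) and by 0.36 (SE 0.06, adjusted p = 1.85e-05). C9, which forms the ring of the pore, was at 12.96, 13.25 and 13.37 at 2-d and at 12.64, 12.84 and 13.19 at 4-wk on L-P/C-HF, and at 13.02, 13.22 and 13.66 against 12.53, 12.85 and 13.10 on H-P/C-HF. It fell by 0.35 (SE 0.07, adjusted p = 0.000426) and by 0.44 (SE 0.07, adjusted p = 2.77e-05), with all 12 mice at 4-wk below the median at 2-d on each diet. C6 had changes of -0.19 (SE 0.10, adjusted p = 0.32) and -0.21 (SE 0.10, adjusted p = 0.23) and was not called.

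**Figure D3:**
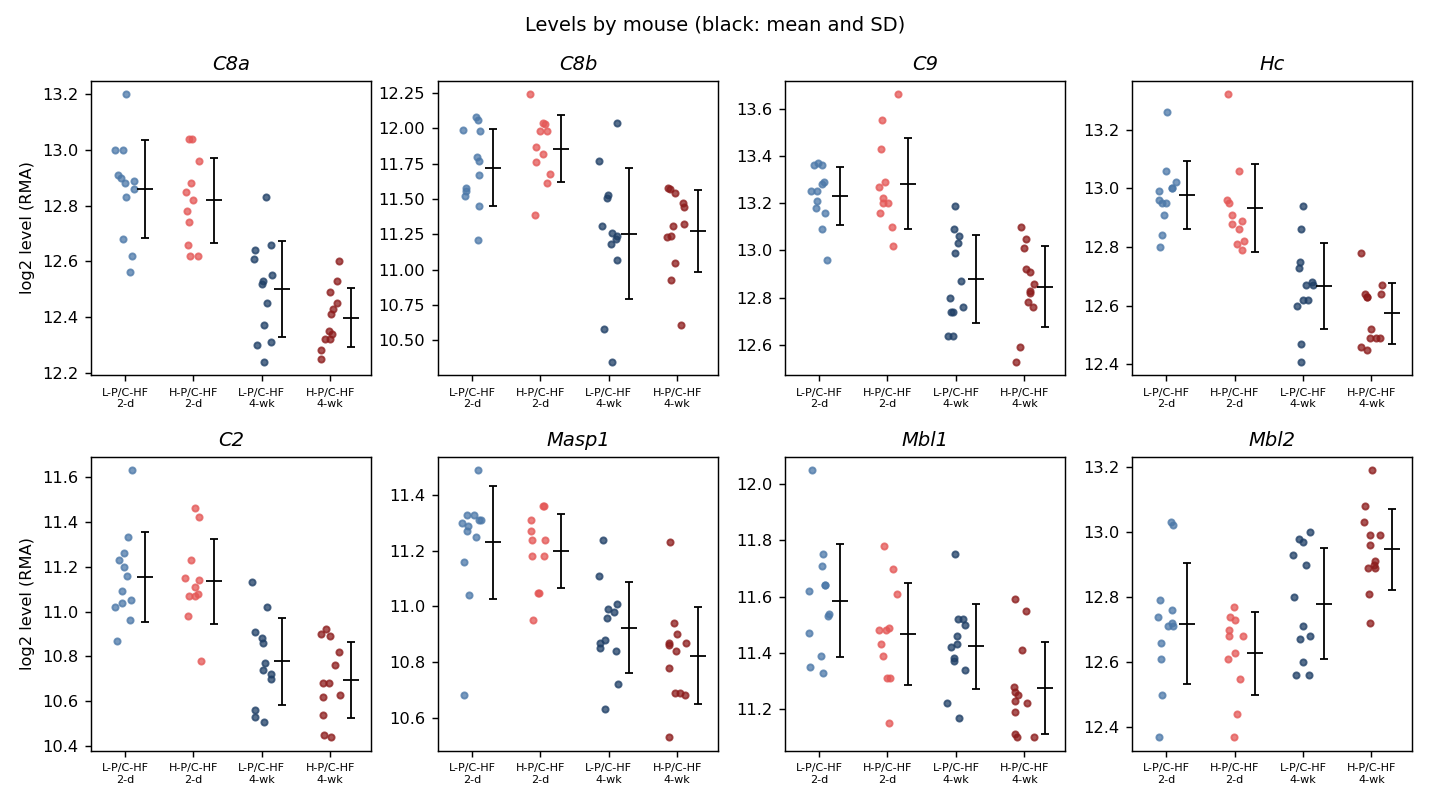
Levels of 8 complement members (y axis, log2 RMA signal, with a scale of its own for each gene) in every mouse of the 4 groups (x axis); points are mice, and black marks are the mean and SD of the 11 or 12 mice. Each gene is shown by its brightest probe set. C8a, C8b, C9, Hc, C2 and Masp1 sit lower at 4-wk on both diets, although other probe sets of Masp1 rose. Mbl2 sits highest in the H-P/C-HF mice at 4-wk (median 12.94).

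Upstream of C5, C2, the protease of the classical and lectin convertase, was at 10.87, 11.13 and 11.63 at 2-d and at 10.51, 10.76 and 11.13 at 4-wk on L-P/C-HF. On H-P/C-HF it was at 10.78, 11.11 and 11.46 against 10.44, 10.68 and 10.92. C2 fell by 0.38 (SE 0.08, adjusted p = 0.00073) and by 0.44 (SE 0.08, adjusted p = 0.000129), and all 3 of its probe sets fell on both diets. Its neighbour Cfb was not called, at -0.12 (SE 0.07, adjusted p = 0.398) and -0.07 (SE 0.07, adjusted p = 0.665).

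The lectin pathway proteases depended on the probe set. The brightest of 5 probe sets of Masp1, a protease carried by the lectins, was at 10.68, 11.30 and 11.49 at 2-d and at 10.63, 10.92 and 11.24 at 4-wk on L-P/C-HF, and at 10.95, 11.24 and 11.36 against 10.53, 10.85 and 11.23 on H-P/C-HF. It fell by 0.31 (SE 0.07, adjusted p = 0.00307) and by 0.38 (SE 0.07, adjusted p = 0.000416). The 3 next brightest Masp1 probe sets rose on both diets, by 0.31, 0.41 and 0.33 on L-P/C-HF and by 0.31, 0.39 and 0.34 on H-P/C-HF, each past the adjusted threshold. The mean over all 5 was 0.12 on L-P/C-HF and 0.10 on H-P/C-HF, so Masp1 has no single direction here, and which transcripts the probe sets read was not tested. Masp2, the protease that cleaves C4 and C2, was at 0.17 (SE 0.07, adjusted p = 0.139) and 0.05 by its brightest probe set, while its other probe set fell by 0.30 (adjusted p = 0.0144) and by 0.38 (adjusted p = 0.0021).

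Mbl2 was the only member called higher by its brightest probe set. On H-P/C-HF its median went from 12.68 at 2-d to 12.94 at 4-wk, a change of 0.32 (SE 0.06, adjusted p = 0.000821) or 1.25 times the earlier level, and all 12 mice at 4-wk lay above the median at 2-d. On L-P/C-HF the change was 0.06 (SE 0.06, adjusted p = 0.718). The difference between the 2 changes is the 0.26 given above, which did not pass. Mbl1 had changes of -0.16 (SE 0.07, adjusted p = 0.205) and -0.19 (SE 0.07, adjusted p = 0.112). The regulators C4bp (-0.07 and 0.04) and Cfi (-0.04 and -0.06) were not called on either diet.

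Few coagulation members were called. Kng1, kininogen of the contact system, was at 13.24, 13.66 and 13.80 at 2-d and at 13.03, 13.39 and 13.67 at 4-wk on L-P/C-HF. It fell by 0.23 (SE 0.06, adjusted p = 0.00689) there and was at -0.12 (adjusted p = 0.274) on H-P/C-HF, and its other probe set was at -0.06 and 0.04 without a call. F10, the protease that activates prothrombin, was at 12.03, 12.13 and 12.35 at 2-d against 11.84, 12.01 and 12.08 at 4-wk on H-P/C-HF and fell by 0.16 (SE 0.05, adjusted p = 0.0416), with -0.13 (adjusted p = 0.132) on L-P/C-HF. Of its 2 dimmer probe sets, 1 fell on both diets, by 0.30 (adjusted p = 0.0229) on L-P/C-HF and by 0.33 (adjusted p = 0.011) on H-P/C-HF, and the other was at -0.27 and -0.26 without a call. Plg, the precursor of plasmin, was at 13.75, 13.85 and 13.93 against 13.63, 13.74 and 13.86 on H-P/C-HF and fell by 0.11 (SE 0.03, adjusted p = 0.0469), with -0.08 (adjusted p = 0.188) on L-P/C-HF. With array B25 included, neither F10 (adjusted p = 0.102) nor Plg (adjusted p = 0.184) passed.

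The remaining clotting genes did not pass with their brightest probe set. Of the vitamin K-dependent proteins, F2, which encodes prothrombin, was at -0.07 on L-P/C-HF and -0.04 on H-P/C-HF, F7, which starts the extrinsic pathway with tissue factor, at -0.15 and -0.19, F9 at -0.11 and -0.13, and the anticoagulants Proc at -0.07 and -0.13 and Pros1 at -0.02 and 0.06. F11 of the intrinsic pathway was at -0.15 and -0.34 (adjusted p = 0.0947), F12 at -0.09 and -0.08, and Klkb1, prekallikrein, at 0.02 on both diets. F13b, the carrier subunit of the enzyme that cross-links fibrin, was at 0.15 and 0.09. The cofactor F5 was at -0.06 and -0.14, although its other probe set fell by 0.23 on both diets (adjusted p = 0.0203 and 0.0194). The fibrinogen chains lay between -0.09 and -0.08 on L-P/C-HF and were near -0.04 or -0.05 on H-P/C-HF, without a call.

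Other genes of the same pathways moved in both directions. Of the 51 measured, 15 rose and 5 fell on L-P/C-HF, against 5.39% and 1.49% of all probe sets. On H-P/C-HF 13 rose and 2 fell, against 4.71% and 1.98%. Those that rose on both diets included the 3 chains of C1q, the recognition unit of the classical pathway (C1qa by 1.19 and 1.02, C1qb by 1.65 and 1.47, C1qc by 1.12 and 0.97), Cfp by 1.08 and 0.73, the lectins Fcna by 1.21 and 0.997 and Colec11 by 0.54 and 0.53, and the complement receptor Vsig4 by 1.25 and 1.07. Itgb2, Cd55 and Cd59a, which encode a receptor subunit and membrane regulators, also rose on both diets, by 0.25 to 0.79. Among coagulation genes of other cells, F8 rose by 0.94 and 0.85, Vwf by 0.47 and 0.59 and Thbd, thrombomodulin, by 0.52 and 0.54. Habp2 (0.47) and Tfpi (0.26) rose on L-P/C-HF.

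Plasma proteins outside the members that fell were Clu, the inhibitor clusterin, by 0.10 and 0.12 and Cpn2, a subunit of the carboxypeptidase that trims anaphylatoxins, by 0.22 and 0.27, on both diets. Cfhr2 fell by 0.26, Proz by 0.31 and Serpina10, the inhibitor that works with protein Z, by 0.38 on L-P/C-HF. The 3 genes of the vitamin K cycle were not called.

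**Figure D4:**
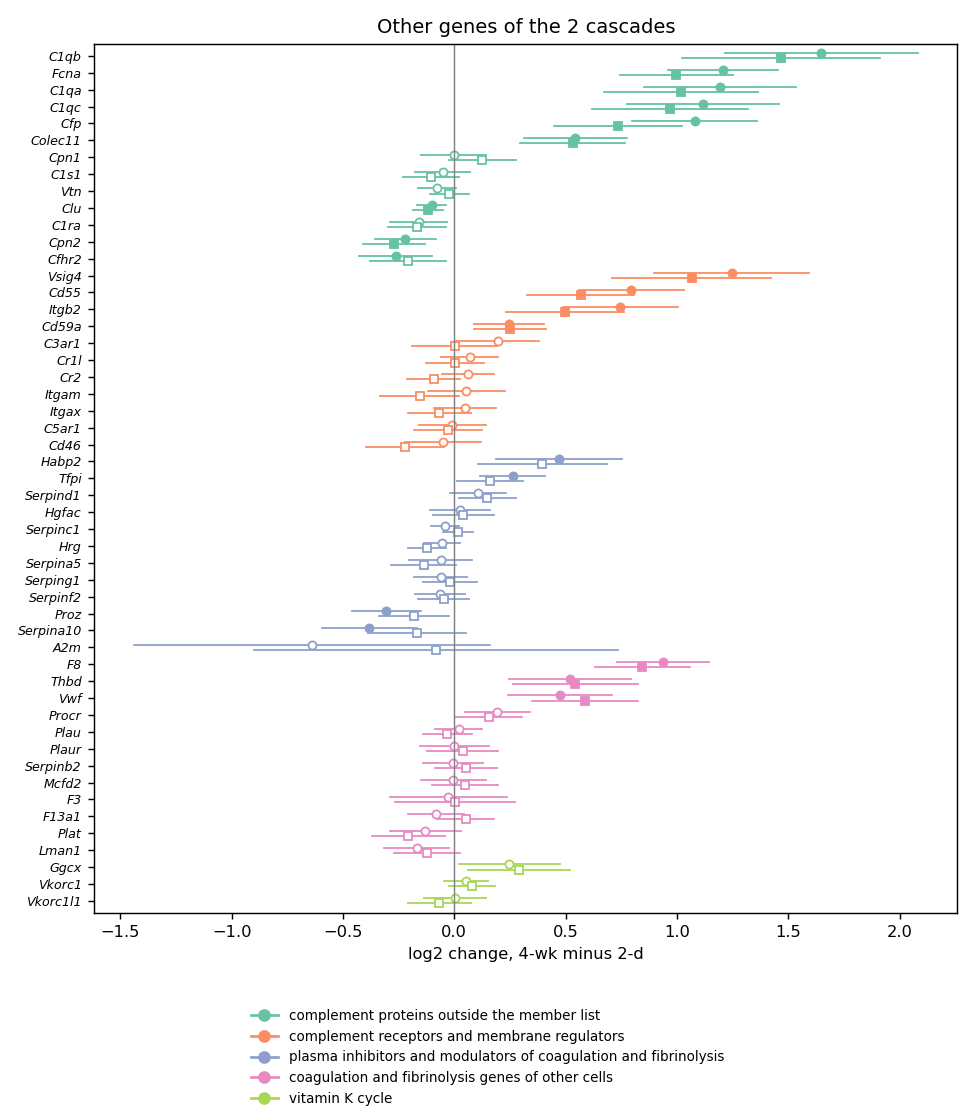
Change with duration of the 51 measured genes of complement and coagulation outside the member list, as the log2 change of 4-wk minus 2-d (x axis) by gene (y axis), coloured by list; circles are L-P/C-HF and squares H-P/C-HF, bars are 95% confidence intervals, and filled symbols passed an adjusted p of 0.05. C1qb lies farthest to the right (1.65 and 1.47), and Clu and Cpn2 are filled on the left on both diets.

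Markers of other liver cells moved with duration too. Of 10 Kupffer cell and macrophage markers, 9 rose on L-P/C-HF and 7 on H-P/C-HF (median change 0.89 and 0.70), and their summed signal ran from 12.1 to 13.3 and from 12.2 to 12.9 at 2-d and from 12.7 to 14.0 and from 12.2 to 13.6 at 4-wk. Of 8 sinusoidal endothelial markers 7 and 8 rose (median 0.82 and 0.74), and of 8 stellate cell markers 4 rose on each diet. Of the 10 hepatocyte markers, 0 rose on either diet, and 0 and 1 fell (median -0.01 and -0.04). Over all probe sets 5.39% and 4.71% rose, and 1.49% and 1.98% fell. The RNA quality index was lower at 4-wk and moved with these changes as well. A lower index is a smaller 3′ excess, so it does not stand for poorer RNA. With that index as a covariate, 2 members instead of 7 passed on L-P/C-HF, and 6 instead of 9 on H-P/C-HF. On L-P/C-HF the 2 were C8a and Hc. With the covariate the median over the members was -0.14 instead of -0.09 on L-P/C-HF and -0.12 instead of -0.11 on H-P/C-HF. Negative signs numbered 27 and 28 of 30 members instead of 25 and 24. The index ran from 0.29 to 0.9 at 2-d and from 0.165 to 0.39 at 4-wk on L-P/C-HF. On H-P/C-HF it ran from 0.335 to 0.745 and from 0.135 to 0.51. The covariate thus overlaps with duration, and this fit cannot separate them. Over all probe sets, those higher and lower fell from 2426 and 670 to 371 and 93 on L-P/C-HF, and from 2122 and 890 to 421 and 201 on H-P/C-HF. The part of other cells and of RNA quality in the lower levels was not tested.

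Several regulators and acute phase genes fell at 4-wk along with the complement members, and their part in those changes was not tested. Hnf4a, the hepatocyte nuclear factor, fell by 0.29 (adjusted p = 0.00068) and by 0.30 (adjusted p = 0.000565), and Il6ra, the interleukin 6 receptor chain, by 0.61 and 0.76. Cebpb fell by 0.36 and Stat3 by 0.43 on L-P/C-HF, and Nr1i2 fell by 0.34 and Il6st rose by 0.33 on H-P/C-HF. Of 23 acute phase genes listed outside the members, not all of them plasma proteins, 5 fell on each diet and 0 rose. Over all probe sets 1.49% and 1.98% were lower and 5.39% and 4.71% higher. Of the 23, 22 and 21 had negative signs, with medians of -0.40 and -0.37. Saa1, a serum amyloid A, fell by 1.08 and 1.65 and Saa4 by 0.40 and 0.54 on both. Hpx, Cp and Socs3, the last an inhibitor of cytokine signalling inside the cell, fell on L-P/C-HF, by 0.12, 0.18 and 1.26. Orm3 (-0.98), Mt1 (-1.33) and Mt2 (-1.499) fell on H-P/C-HF.

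The third question was how the members varied between mice of a group. The residual SD, after the 4 group means were removed, had a median of 0.155 over the members. Over the 3601 genes at least as bright as the dimmest member it was 0.194, but those genes were not matched to the members for level. Among the members the residual SD was lowest for F2 (0.0569), Plg (0.0651), Fga (0.075) and Fgg (0.0798), and highest for C8b (0.329), F11 (0.31) and Pros1 (0.3). The first 4 had high mean signals over the 47 mice, of 13.50, 13.79, 13.75 and 13.99. Those of C8b, F11 and Pros1 were 11.52, 9.87 and 9.30. Fgb, also at 13.99, had a residual SD of 0.115. The part of signal level in these SDs was not tested, so a low SD need not mean a steadier gene. The L-P/C-HF group at 2-d had the largest SD of the 4 groups for 23 of 30 members. A single mouse of that group, A09, was the farthest of all from its group mean for 12 members. It lay 0.70 above the mean for C4bp, 0.50 above for Fgb, 0.78 above for Pros1 and 0.47 above for Mbl1, and 0.98 below for Klkb1. Its Saa1 lay 2.40 above.

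Correlations between members were taken over the 47 mice as deviations from the group means, in 17 measured of 20 planned pairs, with permutation p-values adjusted over the 17. The fibrinogen chains, which assemble in equal numbers into 1 protein, gave the highest values. Fga and Fgg had r = 0.893 and rho = 0.802, Fgb and Fgg r = 0.875 and rho = 0.745, and Fga and Fgb r = 0.77 and rho = 0.572. The permutation p of r was 1e-05 for each, the smallest the permutations can give (adjusted p = 4.25e-05), and that of rho at most 0.0001 (adjusted p = 0.000425). Without the 2 mice farthest on the first gene, r was 0.828, 0.772 and 0.613. Within the 4 groups r ran from 0.521 to 0.957 over the 3 pairs. The window of Fgg printed above held none of the motifs that those of Fga and Fgb shared. Whether such motifs have a part in these correlations was not tested.

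C8a and C8b varied together, with r = 0.655 (permutation p = 1e-05, adjusted p = 4.25e-05), rho = 0.62 (permutation p = 3e-05, adjusted p = 0.00017) and r = 0.654 without the 2 farthest mice, and r from 0.399 to 0.869 within groups. No such relation was seen for C8g over the pooled mice, with r = 0.0187 against C8a (permutation p = 0.908, adjusted p = 0.908; rho = 0.126, permutation p = 0.403, adjusted p = 0.457) and 0.0636 against C8b (permutation p = 0.652, adjusted p = 0.792; rho = 0.104, permutation p = 0.495, adjusted p = 0.521). Within groups the r of C8a and C8g was -0.35 and -0.235 at 2-d and 0.53 and 0.626 at 4-wk, of opposite sign at the 2 durations, and that of C8b and C8g ran from -0.174 to 0.371. Without the 2 farthest mice the pooled values were 0.256 and 0.0229. F7 and F10 had r = 0.543 (permutation p = 0.00029, adjusted p = 0.000704), rho = 0.482 (permutation p = 0.00124, adjusted p = 0.00301), r = 0.441 without the 2 farthest mice, and r from 0.249 to 0.663 within groups. Mbl1 and Mbl2 had r = 0.0201 (permutation p = 0.898, adjusted p = 0.908) and rho = 0.157 (permutation p = 0.305, adjusted p = 0.37), with r = 0.292 without the 2 farthest mice, and within groups r = -0.405 on L-P/C-HF at 2-d and 0.0663 to 0.378 in the others. Masp1 and Masp2 had r = 0.203 (permutation p = 0.234, adjusted p = 0.332) and rho = 0.181 (permutation p = 0.232, adjusted p = 0.303), with r = 0.017 without the 2 farthest mice and r from -0.16 to 0.363 within groups.

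**Figure D5:**
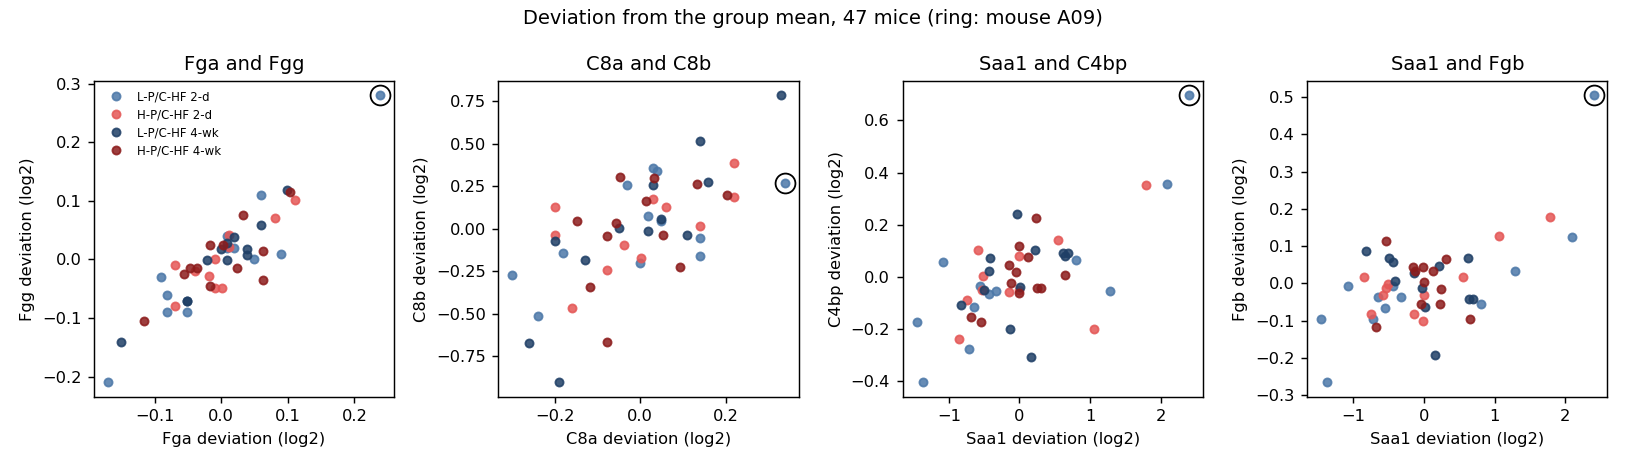
Deviation of each of the 47 mice from its group mean (both axes, log2 units) for Fga and Fgg, C8a and C8b, Saa1 and C4bp, and Saa1 and Fgb; colours are the 4 groups and the ring marks mouse A09. Fga and Fgg fall close to a line (r = 0.893), and A09 lies at the upper right in the panels with Saa1.

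Saa1 was set against members as a strongly inducible acute phase gene. C4bp had r = 0.685 with it (permutation p = 4e-05, adjusted p = 0.000136; rho = 0.548, permutation p = 0.00021, adjusted p = 0.000714), and Cfb r = 0.60 (permutation p = 9e-05, adjusted p = 0.000255; rho = 0.531, permutation p = 0.00034, adjusted p = 0.000963). Without the 2 mice farthest on Saa1, r was 0.511 and 0.462. Within groups C4bp had r from 0.297 to 0.834, and Cfb from -0.126 to 0.885. The fibrinogen chains had r = 0.595 for Fgb (permutation p = 0.00048, adjusted p = 0.00102), 0.561 for Fgg (permutation p = 0.00065, adjusted p = 0.00123) and 0.441 for Fga (permutation p = 0.012, adjusted p = 0.0204), with rho = 0.315, 0.362 and 0.262 (permutation p = 0.0386, 0.0184 and 0.0961; adjusted p = 0.0729, 0.0391 and 0.149).

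The r of fibrinogen with Saa1 differed between the groups. At 2-d it ran within groups from 0.518 to 0.814 over the 3 chains, and at 4-wk from -0.407 to 0.116. The pooled relation was thus not seen within the groups at 4-wk. Saa1 also varied less there, with deviations from -0.82 to 0.69 on L-P/C-HF and from -0.68 to 0.65 on H-P/C-HF. At 2-d they ran from -1.46 to 2.40 and from -0.85 to 1.79. The difference in r between durations and the part of this narrower range were not tested. Without the 2 farthest mice the pooled r was 0.389 for Fgb, 0.357 for Fgg and 0.246 for Fga. Without mouse A09 it was 0.432 for Fgb (adjusted p = 0.0157), 0.414 for Fgg (adjusted p = 0.0189) and 0.272 for Fga, which no longer passed (adjusted p = 0.152). Of the other members set against Saa1, C9 had r = -0.0485 (permutation p = 0.72, adjusted p = 0.816; rho = -0.0918, permutation p = 0.521, adjusted p = 0.521), Plg r = 0.232 (permutation p = 0.055, adjusted p = 0.085; rho = 0.195, permutation p = 0.173, adjusted p = 0.245) and Mbl2 r = 0.162 (permutation p = 0.349, adjusted p = 0.456; rho = 0.253, permutation p = 0.0905, adjusted p = 0.149). Without the 2 mice farthest on Saa1, r was 0.0156, 0.158 and 0.275, and within groups it ran from -0.376 to 0.286, from -0.201 to 0.735 and from 0.0720 to 0.698. Without A09 the value for Mbl2 was r = 0.394, which passed (adjusted p = 0.0186).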

How the data were processed

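Liver RNA of 48 mice was hybridised to Affymetrix whole-genome mouse expression arrays. The values deposited by the authors are log2 signals per probe set after RMA (version not given in the sources used here), which corrects the background, normalises between arrays and summarises probes. The log base was read from their range, 3.16 to 14.81. The number of mice, not a read depth, sets the precision, and intervals are at 95%.

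Samples whose labels name a high-protein diet were assigned to H-P/C-HF. After 64 control probe sets were left out, 45037 were fitted in limma 3.58.1 (R 4.3.3) with 1 coefficient per group and eBayes with a trend, over 47 arrays without B25, two-sided, with Benjamini-Hochberg adjustment over all probe sets at 0.05. Probe sets with several symbols (932) or none (9160) named no gene. Correlations used 100000 permutations (scipy 1.17.1). Values were given by mouse group for members among the smallest p of each comparison, for every member that passed, and for fibrinogen and the mannose-binding lectins in any case. Of other pathway, regulator and acute phase genes, those that passed and those with the smallest p for diet were named. The members, lists and tests were chosen with earlier results of these data known. The fits were tested on simulated data.

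Alternatives were B25 included, A01, A09 and A24 left out, array weights over all 48 arrays, median centring, cyclic loess, brighter probe sets alone, separate fits, eBayes without a trend, an RNA quality covariate, the replicate number as a block, ordinary ANOVA, the average over each gene's probe sets, and adjustment over 1 probe set per gene. Leaving out A09 alone and array weights over the 47 arrays were chosen after seeing the data. Supplementary result tables of the study were not used.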

Additional observations from a re-analysis of the deposited data

How the results depend on the processing

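Over the 6 comparisons, 81 alternative counts of members passing stayed within 1.5 times the main count and 7 did not. All 4 alternative counts of correlated pairs stayed within it. With array weights, over 48 arrays with B25 and over the 47 without it alike, 1 member (C4bp) passed for the mean diet effect instead of 0, and 15 members instead of 9 passed for duration on H-P/C-HF. With cyclic loess 14 instead of 7 passed for duration on L-P/C-HF and 17 instead of 9 on H-P/C-HF. With the RNA quality covariate, which overlaps with duration, 2 instead of 7 passed on L-P/C-HF. The median change was then -0.14 instead of -0.09, and calls over all probe sets fell too. Averaging all probe sets turned Masp1 to 0.12 on L-P/C-HF and 0.10 on H-P/C-HF, since 3 of its other probe sets rose. The correlation of Saa1 and C9, near zero throughout, changed sign with B25 included (0.0293), without A01, A09 and A24 (0.114), with the RNA quality index removed (0.125) and without A09 alone (0.0788).

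Without A01, A09 and A24, C8b (adjusted p = 0.0875) and Kng1 (adjusted p = 0.0534) no longer passed on L-P/C-HF, nor did either in separate fits (0.0526 and 0.0536) or Kng1 with its probe sets averaged (0.0675). On H-P/C-HF Plg was lost without a trend (0.0655), with median centring (0.149) and with adjustment over 1 probe set per gene (0.0519), and F10 with median centring (0.102), and both were lost with B25 included (0.184 for Plg and 0.102 for F10) and with the RNA quality covariate (0.111 and 0.236), under which C8b was lost as well (0.0666). Masp1 and Masp2 correlated with B25 included (r = 0.335, adjusted p = 0.0397) and with the RNA quality index removed (r = 0.516, adjusted p = 0.00104), Saa1 and Plg with B25 included (r = 0.324, adjusted p = 0.019), and Saa1 and Mbl2 without A01, A09 and A24 (r = 0.425, adjusted p = 0.0145). Mbl2 kept its rise on H-P/C-HF under every alternative run, with values from 0.28 to 0.35. The replicate numbers did not pair the mice: over 0.1 were 7 of 11, 2 of 12, 5 of 12 and 3 of 11 same-numbered correlations in the 4 comparisons, and 1, 0, 3 and 1 mice correlated best with their own number. With the replicate number as a block, 7 and 9 members passed for duration on the 2 diets and 0 for each diet comparison. Separate fits gave no value for the mean diet effect or the difference of diet effects, which need all groups. Cells, ages and RNA quality that moved with duration limit those comparisons, and 3 of 33 members are not analysed here.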
